A study of Mus musculus with 24 samples.

Results

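Cd69, Cd63, Cd200r3 and Itga2 encode 4 surface proteins that are used to recognise basophils or to read their activation. They were chosen by name and are 4 of the 15737 genes in the deposited table. All 4 were among the 12936 genes that passed the filter on low counts. Their RNA was followed in bone marrow-derived basophils after a pulse of antigen, as read counts per gene from 3' end sequencing. Surface protein was not measured in these files.

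The cells came from TTP-KO mice, which lack tristetraprolin, and from WT mice. Tristetraprolin (TTP, encoded by Zfp36) is a protein that binds AU-rich stretches in messenger RNA and speeds its decay. All 8 groups shared the same handling: marrow cells grew for 7 days with IL-3 at 0.3 ng/mL, TNP-specific IgE (1 µg/mL) and 4-thiouridine (s4U, 150 µM) joined them on day 6, antibody-coated beads then drew out the cells with CD49b, and TNP-coupled ovalbumin (10 ng/mL) was given for 1.5 h with s4U. Antigen and s4U were then washed away, and RNA was taken after 0, 1, 2 and 4 h from TTP-KO and from WT cells, with 3 libraries in each of the 8 groups. The labels give neither the allele behind the TTP-KO mice nor the animal or culture behind each library. The p-values rest on the spread among the libraries of a group, which may be technical. There was no group without antigen, so every change over time is a change after the end of the pulse.

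Basophils carry IgE on the high-affinity receptor, and antigen that crosslinks it makes them empty their granules and switch on cytokine genes. CD63 is a tetraspanin, a protein that spans the membrane several times, and sits in the membranes of granules and late endosomes until these fuse with the cell surface. In human blood basophils its appearance there is the standard readout of degranulation. CD69 is a C-type lectin-like protein that appears early on activated leukocytes and, in lymphocytes, pulls the exit receptor S1PR1 off the surface. CD200R3 is an activating member of the mouse CD200 receptor family that signals through the adaptor DAP12 (Tyrobp) and marks mouse basophils and mast cells. CD49b is the alpha 2 chain of a collagen-binding integrin, encoded by Itga2, whose partner chain is Itgb1. NK cells also carry CD49b. Because CD49b protein chose the cells, Itga2 describes cells already selected for its product.

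The 3' untranslated region (UTR), where TTP binds, differs widely among the 4 genes. It was read in the annotation GENCODE M21 (GRCm38), along the transcript strand and in the longest annotated form of each gene. The submitters name the build GRCm39, so only the chromosome is given. Cd69 (ENSMUSG00000030156, chromosome 6) has 936 bases with 1 copy of TATTTAT, the short form of the TTP motif, and Itga2 (ENSMUSG00000015533, chromosome 13) has 3404 bases with 2 copies. The 3 sites are shown because they are where the preferred letters of TTP occur in these genes; capitals mark TATTTAT.
Cd69 site: tctagagttacTATTTATtgccgaatgac
Itga2 site 1: aataggttataTATTTATatgtatgtata
Itga2 site 2: attgataatctTATTTATtaactaagttt

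The Cd69 site lies at bases 300 to 328 of its 3' UTR, counted from the base after the stop codon, and the Itga2 sites lie at bases 455 to 483 and 639 to 667. The second Itga2 site holds the longer motif TTATTTATT, which contains TATTTAT. Cd63 (ENSMUSG00000025351, chromosome 10), with 82 bases, and Cd200r3 (ENSMUSG00000036172, chromosome 16), with 3030 bases, hold neither motif. The core ATTTA occurs 2 times in Cd69, 11 times in Itga2, 3 times in Cd200r3 and 0 times in Cd63. Of the 12740 tested genes with an annotated 3' UTR, 30.7% hold TATTTAT, 8.38% TTATTTATT and 70.3% ATTTA. Long 3' UTRs hold these letters more often. Among genes with a 3' UTR of like length (the shorter at least 0.8 times the longer), TATTTAT is found in 23.6% for Cd69, 2.02% for Cd63, 53.0% for Cd200r3 and 56.2% for Itga2. For Itga2 the share of like length is 15.4% for TTATTTATT and 97.5% for ATTTA. A match is a run of letters and not a measured binding site.

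Libraries held 8839260 to 25372890 reads, and the 2 shallowest were TTP-KO 4 h B and C. Levels below are CPM, read counts divided by the library total, scaled to a common size and adjusted with TMM factors, given for libraries A, B and C. Some basophil genes were abundant in every library: Mcpt8, a basophil protease gene, stood at 11810 to 15110 CPM and Prss34 at 6343 to 12500 CPM. Both are at the high end of the basophil markers, which also hold Il3ra and Ccr3, with medians of 129.7 and 7.27 CPM. Markers of NK and T cells (18 of the 20 listed are in the table) summed to 559 to 940.1 CPM in TTP-KO and 655 to 1026 CPM in WT, almost all from Gzmb and Nkg7. Among their defining markers, Ncr1, Klrb1c, Klrd1 and Cd3g had reads in 6, 1, 2 and 1 of the 24 libraries, Cd3d and Cd3e in 7 each, Klrk1 in 10, Prf1 in 11, Eomes in 12 and Lck in 21. Klrk1 reached 20.4 CPM in 1 library. Markers of platelets and megakaryocytes, which also carry CD49b, summed to 3185 to 5077 CPM in TTP-KO and 3441 to 5508 CPM in WT, with Pf4 at 1141 to 2036 CPM. Markers of monocytes and macrophages moved with genotype: the 19 in the table summed to 2395 to 2463 CPM in TTP-KO against 1041 to 1093 CPM in WT at 0 h, and to 1286 to 1686 CPM in TTP-KO against 613 to 669 CPM in WT at 4 h. Mast cell markers, 12 of them in the table, had a lower sum in TTP-KO without overlap at all 4 times. It was 6164 to 6462 CPM in TTP-KO against 6548 to 7304 CPM in WT at 0 h. At 4 h it was 4474 to 4678 CPM in TTP-KO against 5385 to 5615 CPM in WT. This sum came mostly from Cpa3, Gata2 and Cyp11a1, with medians of 2249, 1564 and 2430 CPM. Cpa3 and Gata2 are also on the list of basophil markers. Mcpt1, Mcpt4 and Cma2 had reads in 6, 5 and 1 of the 24 libraries. The part of the macrophage or mast cell markers in the TTP-KO against WT values below, those of Cd200r3 included, was not tested. In bulk samples such as these, fewer cells of a type and less RNA per cell cannot be told apart.

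Zfp36 itself still gave reads in every TTP-KO library. At 1 h its RNA was lower in TTP-KO by a log2 change of -1.45 ± 0.24 SE (edgeR adjusted p = 0.000116). At 4 h the change was -0.87 ± 0.24 (edgeR adjusted p = 0.0422). At 0 h Zfp36 averaged 185 ± 26.2 CPM in TTP-KO and 237 ± 27.8 CPM in WT (SD, n = 3 each). As the reads come from the 3' end and the allele is not given, they are no check of the genotype. The 4 h call was lost in DESeq2 (-0.82, adjusted p = 0.164) and in edgeR without WT 4 h B, WT 4 h C, TTP-KO 4 h A or TTP-KO 4 h C (adjusted p between 0.0744 and 0.243). In edgeR it was also lost with library size alone (adjusted p = 0.0703), with RLE factors (adjusted p = 0.0742) and with only the groups compared (adjusted p = 0.443).

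The comparison of the genotypes asks whether loss of an RNA decay factor changed the RNA of these markers. None of the 4 genes was called at any of the 4 times, in 16 tests with edgeR's quasi-likelihood method and Benjamini-Hochberg adjustment over all 12936 genes. Over all genes, 0.526% were called at 0 h, 0.502% at 1 h, 0.518% at 2 h and 1.82% at 4 h. Against 0 h, under TMM scaling, 3 of the 4 genes were called in both genotypes at some time. Cd69 was lower at 1 h than at 0 h and then rose again, Itga2 was lower at 2 h, and Cd63 was higher at 4 h. Cd200r3 was not called against 0 h in either genotype. Over all genes, 2.74% in TTP-KO and 2.33% in WT were called at 1 h, 9.89% and 10.0% at 2 h, and 18.1% and 16.7% at 4 h. The share of all genes called in both genotypes at some time was not counted, so the 3 of 4 is a description. With library size alone, Cd200r3 was called at 2 h in both genotypes and the Itga2 fall in WT was not called.

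**Figure D1:**
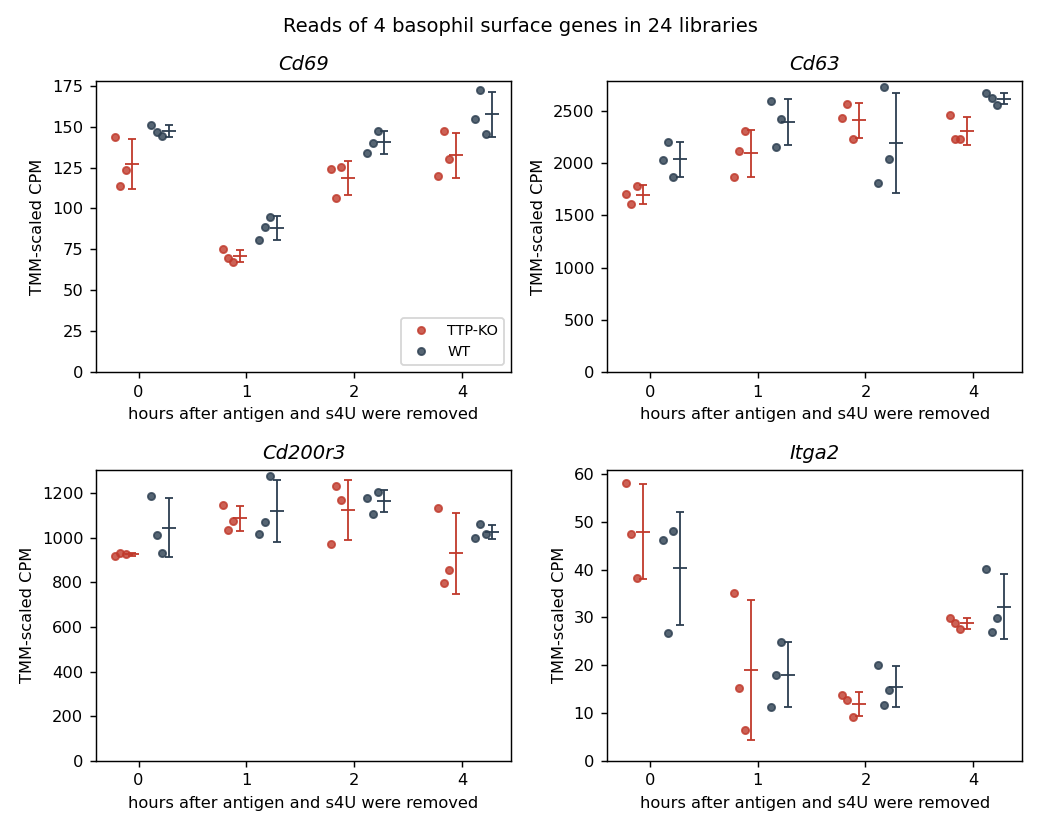
Levels of Cd69, Cd63, Cd200r3 and Itga2 in each library, as TMM-scaled CPM (vertical axis, from 0) at 0, 1, 2 and 4 h after antigen and s4U were removed (horizontal axis). Points are libraries, TTP-KO left of WT at each time, and bars are means with SD of 3 libraries. Cd69 dips at 1 h and Itga2 at 2 h in both genotypes, and the TTP-KO points of Cd69 lie below the WT points at 0, 1 and 2 h.

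Cd69 RNA was lowest at 1 h. At 0 h it stood at 144, 114 and 123 CPM in TTP-KO libraries and at 151, 147 and 144 CPM in WT libraries. At 1 h it stood at 74.9, 70.0 and 67.5 CPM in TTP-KO and at 80.5, 88.9 and 94.9 CPM in WT. Every 1 h library was below every library of the other times, in both genotypes. At 2 h the libraries read 124, 106 and 126 CPM in TTP-KO and 134, 139.8 and 148 CPM in WT. At 4 h they read 120.2, 147 and 130.2 CPM in TTP-KO and 155, 173 and 145 CPM in WT. TTP-KO libraries lay below WT libraries without overlap at 0, 1 and 2 h, and overlapped with them at 4 h. The gap at 0 h was narrow, between 143.9 CPM in TTP-KO and 144.2 CPM in WT. How many of all genes were apart in this way was not counted, so the separation by itself is a description.

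The dip of Cd69 at 1 h passed the test in both genotypes. At 1 h against 0 h it fell by 0.84 ± 0.16 on the log2 scale in TTP-KO (edgeR adjusted p = 0.000348) and by 0.74 ± 0.16 in WT (edgeR adjusted p = 0.00229). Among all genes 2.74% were called in TTP-KO and 2.33% in WT, and 1.51% and 1.28% were called lower. A comparison of 2 h with 1 h, added after the levels had been seen, gave a rise of 0.74 ± 0.16 in TTP-KO (edgeR adjusted p = 0.00176) and 0.67 ± 0.16 in WT (edgeR adjusted p = 0.00617), where 0.920% and 0.696% of all genes were called higher and 3.01% and 2.80% in either direction. Without WT 1 h A the WT rise was 0.61 (edgeR adjusted p = 0.0675). By 2 h and 4 h Cd69 was not called against 0 h: the log2 changes were -0.10 and 0.06 in TTP-KO and -0.07 and 0.10 in WT. The change from 0 to 1 h differed between the genotypes by -0.10, with a 95% interval of -0.55 to 0.34, which was not called (edgeR adjusted p = 1).

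Between the genotypes, Cd69 was lower on average in TTP-KO at all 4 times, and no time passed the test. The log2 changes of TTP-KO over WT were -0.21 at 0 h (edgeR adjusted p = 0.854), -0.32 at 1 h (edgeR adjusted p = 0.703), -0.24 at 2 h (edgeR adjusted p = 0.729), with the 4 h value at -0.25 (edgeR adjusted p = 0.545), each with a standard error of 0.16. At 1 h the 95% interval ran from -0.63 to 0.00062. The mean of the 4 genotype contrasts, tested in the same fit and added after these levels had been seen, was -0.26 ± 0.08, with a 95% interval of -0.41 to -0.10. It missed the threshold in edgeR (unadjusted p = 0.00205, adjusted p = 0.0567), where 3.43% of all genes were called. It passed in DESeq2 (-0.24, adjusted p = 0.0045) and in edgeR with library size as the only scaling (-0.27, adjusted p = 0.0374).

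Cd63 was the most deeply sampled of the 4, with 23047 to 57660 reads in a library. At 0 h it stood at 1707, 1607 and 1785 CPM in TTP-KO libraries and at 2035, 2206 and 1866 CPM in WT libraries. At 1 h the values were 1864, 2114 and 2309.7 CPM in TTP-KO and 2592, 2156 and 2427 CPM in WT. TTP-KO libraries were all below WT libraries at 0 h and overlapped with them at 1 h. At 2 h Cd63 stood at 2432, 2564 and 2236 CPM in TTP-KO and at 1809, 2731 and 2036 CPM in WT, and at 4 h at 2463, 2231 and 2236 CPM in TTP-KO and at 2669, 2626 and 2561 CPM in WT. WT at 2 h spread from 1809 to 2731 CPM (SD 480.2), the widest of the 8 groups, and the genotypes were again apart at 4 h. How many of all genes were apart at 0 h or 4 h was not counted.

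Cd63 rose after the pulse. At 4 h against 0 h it was higher by 0.44 ± 0.11 on the log2 scale in TTP-KO (edgeR adjusted p = 0.00149) and by 0.36 ± 0.11 in WT (edgeR adjusted p = 0.0113). In these comparisons 18.1% and 16.7% of all genes were called, 7.45% and 6.76% as higher. The WT rise was 0.30 without WT 0 h C (edgeR adjusted p = 0.0856). At 2 h it was higher by 0.50 ± 0.11 in TTP-KO (edgeR adjusted p = 0.000564), where 9.89% of all genes were called. In WT the 2 h change was 0.11 ± 0.11 (edgeR adjusted p = 0.644), where 10.0% of all genes were called, and with library size alone it was 0.36 and was called (edgeR adjusted p = 0.0127). The difference between these 2 changes was itself tested: it was 0.40 ± 0.15 and was not called (edgeR adjusted p = 0.630, with 0.0773% of all genes called). It depended on WT 2 h B, the highest library of its group: without it the difference was 0.59 (edgeR adjusted p = 0.0284) and the WT change was -0.08.

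Between the genotypes Cd63 differed by -0.26 at 0 h (edgeR adjusted p = 0.534), -0.19 at 1 h (edgeR adjusted p = 0.727), 0.14 at 2 h (edgeR adjusted p = 0.846), with the 4 h value at -0.18 (edgeR adjusted p = 0.507), none of them called. The mean of the 4 times was -0.12, with a 95% interval of -0.23 to -0.02 (edgeR adjusted p = 0.243). In 19 of 24 libraries the deposited read count of Cd63 was not whole, and how the counting split such reads is not given in the sources used here.

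Cd200r3 had group means between 926 and 1164 CPM, the narrowest relative range of the 4 genes. At 0 h it stood at 918, 932 and 927 CPM in TTP-KO libraries and at 1188, 1013 and 932 CPM in WT libraries, and at 1 h at 1145, 1036 and 1077 CPM in TTP-KO and at 1014, 1070.1 and 1278 CPM in WT. At 2 h the libraries read 971, 1231 and 1167 CPM in TTP-KO and 1179, 1107 and 1206 CPM in WT. At 4 h they read 1135, 799 and 854 CPM in TTP-KO and 1001, 1062 and 1015 CPM in WT. The genotypes overlapped at all 4 times, and the 2 lowest values of all 24 libraries belonged to TTP-KO 4 h B and C.

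None of the comparisons under TMM scaling of all 24 libraries called Cd200r3. Between TTP-KO and WT the log2 changes were -0.17 at 0 h, -0.05 at 1 h, -0.05 at 2 h and -0.14 at 4 h (edgeR adjusted p = 0.797, 1, 1 and 0.706). The 95% interval was -0.40 to 0.06 at 0 h and -0.37 to 0.09 at 4 h, and the SE was 0.11 at each time. At 4 h the change was 0.13 without TTP-KO 4 h B and C, which leaves 1 TTP-KO library. Against 0 h the largest change was 0.28 at 2 h in TTP-KO (edgeR adjusted p = 0.132), and the same change was 0.16 in WT (edgeR adjusted p = 0.468). The TTP-KO change was 0.40 without TTP-KO 2 h A (edgeR adjusted p = 0.0325) and 0.30 without TTP-KO 4 h A (edgeR adjusted p = 0.0491). Cd200r3 belongs to a family of near copies, and its count was not whole in 7 of 24 libraries.

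Itga2 had the fewest reads of the 4, from 91 to 1097 in a library, and the widest spread between libraries. At 0 h it stood at 58.2, 47.5 and 38.2 CPM in TTP-KO libraries and at 46.1, 26.7 and 48.1 CPM in WT libraries. At 1 h it stood at 35.2, 15.3 and 6.52 CPM in TTP-KO and at 11.3, 18.0 and 24.9 CPM in WT. The TTP-KO libraries at 1 h spanned a wider range than the WT libraries at 1 h. At 2 h the values were 13.9, 12.7 and 9.13 CPM in TTP-KO and 20.1, 11.7 and 14.7 CPM in WT, and at 4 h they were 29.8, 28.8 and 27.6 CPM in TTP-KO and 40.04, 26.9 and 29.9 CPM in WT. TTP-KO and WT overlapped at every time, and all 6 libraries at 2 h lay below all 6 at 0 h.

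Itga2 fell at 2 h in both genotypes. Against 0 h it was lower by -2.01 ± 0.41 on the log2 scale in TTP-KO (edgeR adjusted p = 0.000354) and by -1.38 ± 0.40 in WT (edgeR adjusted p = 0.0167), where 5.77% and 6.47% of all genes were called lower. The WT call was lost without WT 0 h A (-1.27, edgeR adjusted p = 0.0587), WT 0 h C (-1.23, edgeR adjusted p = 0.0766), WT 2 h B (-1.21, edgeR adjusted p = 0.0813) or WT 2 h C (-1.34, edgeR adjusted p = 0.0528). At 1 h the changes were -1.33 ± 0.40 in TTP-KO (edgeR adjusted p = 0.0569) and -1.16 ± 0.40 in WT (edgeR adjusted p = 0.134). The TTP-KO change at 1 h lay near the threshold: it stayed uncalled in 13 of the 24 fits that left out 1 library, and most of the other fits left out a library of another group. It was -2.14 without TTP-KO 1 h A, the highest of its group (edgeR adjusted p = 0.00125), -0.93 without TTP-KO 1 h C (edgeR adjusted p = 0.400), and called in DESeq2 (adjusted p = 0.0238). By 4 h the changes from 0 h were -0.74 in TTP-KO (edgeR adjusted p = 0.197) and -0.32 in WT (edgeR adjusted p = 0.678).

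Itga2 was higher again at 4 h. At 4 h against 2 h, a comparison added after the levels had been seen, it rose by 1.27 ± 0.40 in TTP-KO (edgeR adjusted p = 0.0442, with 6.39% of all genes called and 1.31% called higher). The change was 1.06 ± 0.40 in WT (edgeR adjusted p = 0.132, with 5.06% of all genes called). The TTP-KO call was lost when any 1 of the 6 libraries compared was left out, with adjusted p between 0.0607 and 0.182 in edgeR. Between the genotypes Itga2 differed by 0.25 at 0 h, 0.08 at 1 h, -0.38 at 2 h and -0.17 at 4 h, and none was called (edgeR adjusted p = 1, 1, 0.978 and 0.966). The intervals were wide, from -0.54 to 1.04 at 0 h and from -1.18 to 0.42 at 2 h, so changes of these sizes were not detectable here. The 1 h value was -0.73 without TTP-KO 1 h A and -0.17 without WT 1 h A.

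**Figure D2:**
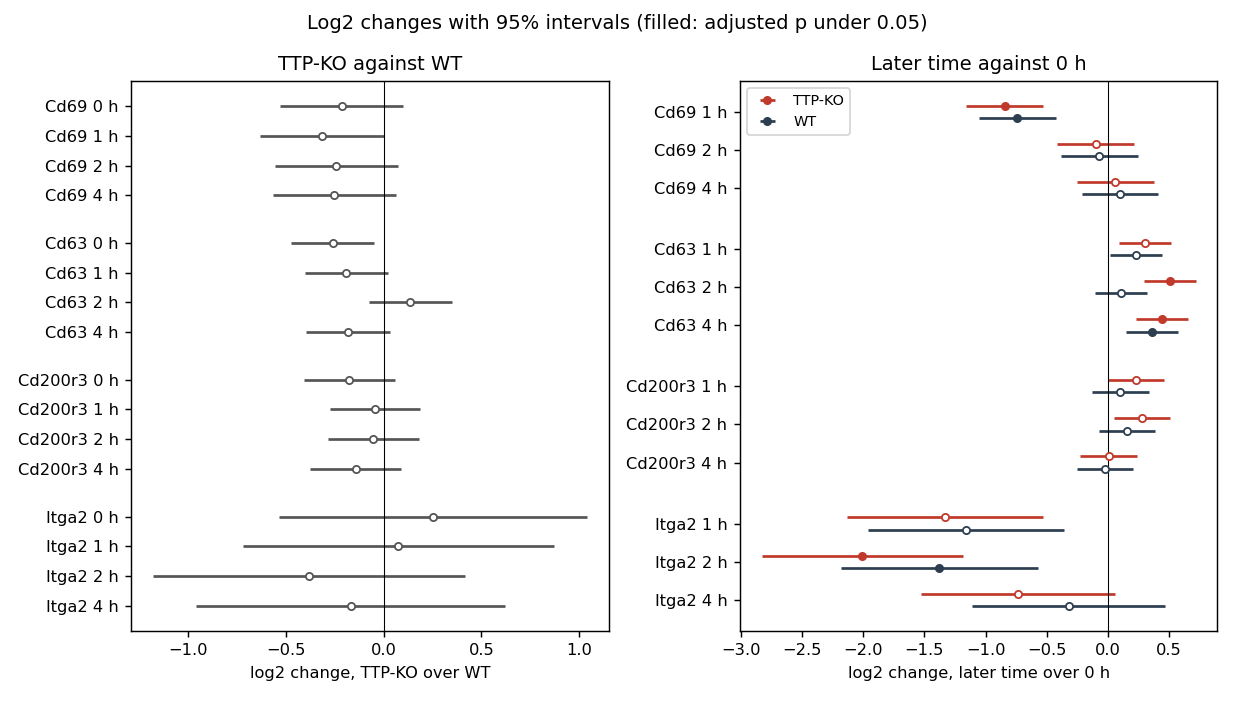
Log2 changes of the 4 genes with 95% intervals from edgeR, for TTP-KO over WT at each time (left) and for each later time over 0 h in TTP-KO and WT (right). Filled points passed an adjusted p of 0.05 and open points did not. No point is filled on the left, and on the right Cd69 at 1 h, Cd63 at 4 h and Itga2 at 2 h are filled in both genotypes.

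The difference between the genotypes in the change from 0 h was not called for any of the 4 genes at 1, 2 or 4 h, in 12 tests with edgeR. Few genes were called in that comparison at all: 0.0618% at 1 h, 0.0773% at 2 h and 0.193% at 4 h. The changes over time depend on how libraries are scaled. With library size alone in place of TMM factors, the median log2 change of all genes against 0 h moved by 0.21 in TTP-KO and 0.25 in WT at 2 h, and by 0.37 in TTP-KO and 0.33 in WT at 4 h. The medians under TMM were 0.02 and 0.01 at 2 h and 0.08 and 0.06 at 4 h, so the changes given here are relative to a median near 0. The fall of Cd69 at 1 h was called under both scalings. With library size alone Cd69 was also called higher at 4 h (0.43 in TTP-KO and 0.42 in WT), Cd63 was called higher at 1 h in TTP-KO (0.35, edgeR adjusted p = 0.0437) and at 2 h in WT (0.36, edgeR adjusted p = 0.0127), and Cd200r3 was called higher at 2 h (0.49 in TTP-KO and 0.41 in WT) and at 4 h in TTP-KO (0.37). The fall of Itga2 at 2 h was -1.12 in WT with library size alone (edgeR adjusted p = 0.0625).

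Among the 8 group means of Cd69, both 1 h groups came last. Cd69 ran from 158 ± 13.8 CPM in WT at 4 h down to 119 ± 10.7 CPM in TTP-KO at 2 h over 6 groups in which each overlapped with the next, followed by 88.1 ± 7.24 CPM in WT at 1 h and 70.8 ± 3.81 CPM in TTP-KO at 1 h, which stood apart from their neighbours. Itga2 ran from 48.0 ± 10.0 CPM in TTP-KO at 0 h to 11.9 ± 2.47 CPM in TTP-KO at 2 h, and each group overlapped with the next. For Cd63 the lowest group, TTP-KO at 0 h with 1699.8 ± 89.3 CPM, did not overlap with the next, WT at 0 h with 2036 ± 170.0 CPM, and the highest was WT at 4 h with 2619 ± 54.3 CPM. Cd200r3 ran from 1164 ± 50.9 CPM in WT at 2 h to 926 ± 7.54 CPM in TTP-KO at 0 h, with overlap all along (SD, n = 3 each).

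Genes whose pattern was most like that of each member were taken from 7077 tested genes with a mean of at least 10 CPM, by Pearson's r of log2(CPM + 1) over the 24 libraries. These are descriptions, and the libraries share times and genotypes. Cd69 was most like Rbl2 (r = 0.828), which encodes a pocket protein of the cell cycle, Ndst1 (0.819), an enzyme of heparan sulfate synthesis, and Flt3l (0.816), the ligand of the FLT3 receptor. Cd63 was most like H2ac23 (0.890), Pkp3 (0.885), a plakophilin gene, and H2ac24 (0.882). H2ac23 and H2ac24 are nearly identical histone genes that may share reads, so they count as uncertain. Cd200r3 was most like Tbl1xr1 (0.799), Tspan5 (0.785), a tetraspanin gene, and Ptpn6 (0.755), the phosphatase SHP-1. Itga2 was most like Rpia (0.835), an enzyme of the pentose phosphate pathway, Gbp7 (0.817), a guanylate-binding protein gene, and Rnf13 (0.799). Among the 4 genes themselves r lay between -0.488 (Cd63 and Itga2) and 0.455 (Cd69 and Itga2), so they did not move as a group.

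Itgb1 (ENSMUSG00000025809), the partner chain of CD49b, did differ between the genotypes at 4 h. It stood at 386, 254 and 273 CPM in TTP-KO libraries, against 493, 474 and 534 CPM in WT libraries, and the groups did not overlap. The log2 change was -0.72 ± 0.14 (edgeR adjusted p = 0.00146). The 2 lowest libraries were TTP-KO 4 h B and C, the shallowest of all, and without them the change was -0.39 on the 1 TTP-KO library left (edgeR adjusted p = 0.570). With only the 2 groups compared in the fit it was -0.70 (edgeR adjusted p = 0.0751). At 4 h against 0 h Itgb1 fell by 0.48 in TTP-KO (edgeR adjusted p = 0.0099) and changed by 0.24 in WT, which was not called (edgeR adjusted p = 0.255). The TTP-KO fall was lost without TTP-KO 0 h B, TTP-KO 4 h B or TTP-KO 4 h C (edgeR adjusted p between 0.0639 and 0.103), and with library size alone it was -0.11, while the WT change was 0.56 and was called (edgeR adjusted p = 0.00173). The difference between those 2 changes was -0.72 ± 0.20 and was not called (edgeR adjusted p = 0.142).

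Tyrobp (ENSMUSG00000030579), which encodes the DAP12 adaptor of CD200R3, fell after the pulse in both genotypes. It averaged 2059.5 ± 142 CPM at 0 h, 1915 ± 44.1 CPM at 1 h, 1538 ± 276 CPM at 2 h and 1222 ± 155 CPM at 4 h in TTP-KO. In WT it averaged 2219.7 ± 132 CPM at 0 h, 1789.7 ± 181 CPM at 1 h, 1588 ± 68.6 CPM at 2 h and 1509.6 ± 54.6 CPM at 4 h (SD, n = 3 each). At 4 h against 0 h the log2 change was -0.75 ± 0.11 in TTP-KO (edgeR adjusted p = 1.94e-07) and -0.56 ± 0.11 in WT (edgeR adjusted p = 6.95e-05), while Cd200r3 changed by 0.01 and -0.03. TTP-KO and WT differed by -0.30 at 4 h, which was not called (edgeR adjusted p = 0.162) except without TTP-KO 4 h A (-0.38, edgeR adjusted p = 0.0379). With library size alone the WT fall at 4 h was -0.23 (edgeR adjusted p = 0.105). Macrophages and neutrophils also express Tyrobp, and the summed macrophage markers were lower at 4 h than at 0 h in both genotypes, as given above. Their part in the fall of Tyrobp was not tested.

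**Figure D3:**
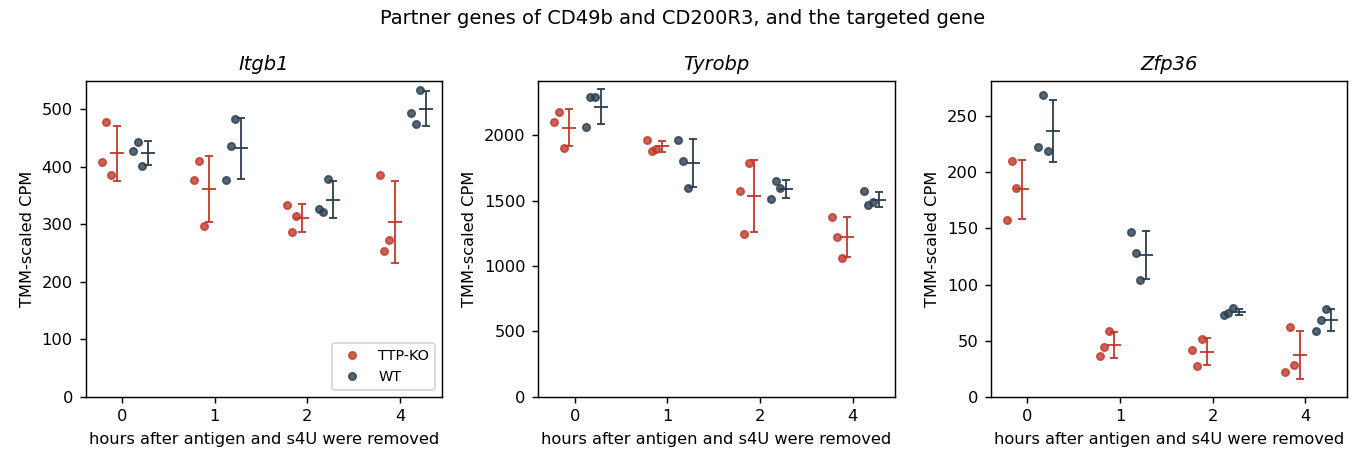
Levels of Itgb1, Tyrobp and Zfp36 in each library, as TMM-scaled CPM (vertical axes, from 0) at 0, 1, 2 and 4 h after antigen and s4U were removed. Points are libraries, TTP-KO left of WT, and bars are means with SD of 3 libraries. Itgb1 is apart between the genotypes at 4 h, with TTP-KO at 254 to 386 CPM and WT at 474 to 534 CPM, and Tyrobp declines in both.

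Other genes of the same kinds were taken from lists of inducible surface proteins, tetraspanins, exocytosis genes, the CD200 receptor family, integrins and basophil surface genes. Members described for changes over time were picked from these lists after their values were seen. Of the 19 tested inducible surface proteins, the list that holds Cd69, 1 was higher and 0 lower in TTP-KO at 1 h and at 2 h, and 0 were called at 0 h and 4 h. Over all genes 0.402% were called higher at 1 h and 0.410% at 2 h. That member was Plaur, the urokinase receptor gene, at 278 CPM in TTP-KO against 119 CPM in WT at 1 h (log2 change 1.22 ± 0.16, edgeR adjusted p = 3.51e-07) and 275 against 166 CPM at 2 h (0.73, edgeR adjusted p = 0.00704). Without WT 2 h A the 2 h change was 0.67 (edgeR adjusted p = 0.0729). The list's median change of TTP-KO over WT lay between 0.11 and 0.14 at the 4 times, beside medians of all genes between -0.01 and 0.00035. Cd69, at -0.21 to -0.32, was on the other side of 0.

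At 1 h against 0 h, 2 of the 19 were higher and 2 lower in TTP-KO, and 1 higher and 3 lower in WT. Over all genes 1.23% were higher in TTP-KO and 1.05% in WT. Cd44, the hyaluronan receptor gene, rose by 0.56 in TTP-KO (edgeR adjusted p = 0.000495) and 0.48 in WT (edgeR adjusted p = 0.00376). A dip at 1 h was not common to the list.

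Of the 20 tested tetraspanins, 0 were called between the genotypes at 0, 1 and 2 h, and 1 was lower in TTP-KO at 4 h, where 0.881% of all genes were called lower and 0.943% higher. It was Cd37, a tetraspanin of lymphoid and myeloid cells, at 112 CPM in TTP-KO against 164 CPM in WT (-0.55 ± 0.15, edgeR adjusted p = 0.0480). This call was lost without WT 0 h B, WT 4 h B, WT 4 h C, TTP-KO 4 h B or TTP-KO 4 h C, with edgeR adjusted p between 0.0505 and 0.294. Over time Cd63 was 1 of 2 higher and 3 lower tetraspanins at 4 h against 0 h in each genotype, where 7.45% of all genes were called higher and 10.6% lower in TTP-KO, and 6.76% higher and 9.97% lower in WT. Cd9, which associates with integrins, rose by 0.49 ± 0.10 in TTP-KO (edgeR adjusted p = 0.000232) and changed by 0.16 in WT (edgeR adjusted p = 0.300). Without TTP-KO 4 h B and C the TTP-KO change of Cd9 was 0.26 (edgeR adjusted p = 0.282), and with library size alone the WT change was 0.49 and was called (edgeR adjusted p = 0.000217).

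CD63 also belongs with the granule membrane and exocytosis genes. Of the 27 tested, 0 were called between TTP-KO and WT at any time, with medians between -0.05 and -0.02. At 4 h against 0 h, 1 was higher and 7 lower in TTP-KO, and 3 were higher and 7 lower in WT. Over all genes 10.6% were called lower in TTP-KO and 9.97% in WT, and 7.45% and 6.76% were called higher. Lamp1, which encodes another membrane protein of lysosomes and granules, fell by 0.64 ± 0.12 in TTP-KO (edgeR adjusted p = 8.66e-05) and by 0.61 ± 0.12 in WT (edgeR adjusted p = 0.0002). Cd63 moved the other way in both, as the 1 member called higher in TTP-KO and 1 of the 3 in WT. With library size alone Lamp1 changed by -0.27 in TTP-KO and -0.28 in WT, which was not called (edgeR adjusted p = 0.102 and 0.0941), and without TTP-KO 4 h B and C its TTP-KO change was -0.40 (edgeR adjusted p = 0.145).

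Of the 11 tested genes of the CD200 receptor family with its ligand and adaptors, 0 were called between the genotypes at any single time. On the mean of the 4 times 2 were lower in TTP-KO, Cd200r4 and Dok2, where 1.55% of all genes were called lower, and 0 were without TTP-KO 4 h B and C. The Cd200r4 call was also lost without WT 0 h A, TTP-KO 1 h B, WT 2 h A, WT 4 h B or TTP-KO 4 h C (edgeR adjusted p between 0.0517 and 0.0737), and the Dok2 call in most of the fits that left out 1 library. Cd200r3 was at -0.10 (edgeR adjusted p = 0.436). At 4 h against 0 h Cd200r4, another receptor of the family that signals through DAP12, rose by 0.46 ± 0.13 in TTP-KO (edgeR adjusted p = 0.00912) and by 0.66 ± 0.13 in WT (edgeR adjusted p = 0.000144), while Cd200r3 was not called. The TTP-KO rise of Cd200r4 was 0.42 without TTP-KO 0 h B (edgeR adjusted p = 0.0511) and 0.34 without TTP-KO 4 h A (edgeR adjusted p = 0.0912). Dok2, an adaptor of inhibitory CD200 signalling, rose by 1.42 ± 0.19 in TTP-KO (edgeR adjusted p = 5.35e-08) and by 1.54 ± 0.19 in WT (edgeR adjusted p = 9.53e-09). Cd200r3 and Cd200r4 are alike in sequence, and how the counting split their reads is not given in the sources used here.

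Of the 22 tested integrins and integrin activators, 0 were called between TTP-KO and WT at 0, 1 and 2 h, and 3 were lower in TTP-KO at 4 h: Itgb1, Itgb7 and Itga2b. Over all genes 0.881% were called lower at 4 h. Itgb7, which pairs with the alpha 4 and alpha E chains, was at 141 CPM in TTP-KO against 212 CPM in WT (-0.59 ± 0.13, edgeR adjusted p = 0.00857). Itga2b, the alpha chain of the platelet fibrinogen receptor, was at 898 CPM in TTP-KO against 1157 CPM in WT (-0.37 ± 0.10, edgeR adjusted p = 0.0397). The Itgb7 call was lost without WT 4 h C (edgeR adjusted p = 0.0835) or TTP-KO 4 h A (edgeR adjusted p = 0.0579), and the Itga2b call held in 13 of the 24 fits that left out 1 library. Of the 3, 1 was called without TTP-KO 4 h B and C and 0 with only the groups compared, and DESeq2 called 6 lower. On the mean of the 4 times, 6 were lower and 1 higher in TTP-KO, where 1.55% and 1.88% of all genes were called. Itgb7 (-0.31 ± 0.07, edgeR adjusted p = 0.00221) was among the lower, and Itgam, which macrophages express strongly, was the higher (0.38 ± 0.08, edgeR adjusted p = 0.00173). Without TTP-KO 4 h B and C, 3 were lower. Itga2 was at -0.06, with a 95% interval of -0.45 to 0.34.

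At 2 h against 0 h, 0 were higher and 9 lower in TTP-KO, and 1 was higher and 8 lower in WT, with list medians of -0.34 in TTP-KO and -0.27 in WT. Over all genes 4.12% were higher and 5.77% lower in TTP-KO, and 3.58% were higher and 6.47% lower in WT. Itga2 was among the lower in both, as was Itga1, the alpha chain of another collagen-binding integrin, which fell by 2.24 ± 0.45 in TTP-KO (edgeR adjusted p = 0.000284) and fell by 2.06 ± 0.44 in WT (edgeR adjusted p = 0.000843). Itgam fell by 1.16 in TTP-KO (edgeR adjusted p = 4.75e-07) and 1.06 in WT (edgeR adjusted p = 3.06e-06). Itga1 lies on chromosome 13, as does Itga2, and averaged 25.9 CPM over the 24 libraries.

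Of 26 tested basophil surface genes, the list that holds Cd200r3 and Itga2, 0 were called between the genotypes at 0 h and 1 h, 2 were lower in TTP-KO at 2 h and 1 at 4 h. At 2 h 0.108% of all genes were called lower, and at 4 h 0.881%. On the mean of the 4 times, 2 to 5 were lower and 0 to 1 higher in the fits that left out 1 library. In the full fit 1.55% of all genes were called lower and 1.88% higher on that mean. Cd24a, a heavily glycosylated adhesion protein gene, was at 96.9 CPM in TTP-KO against 181 CPM in WT at 2 h (-0.90 ± 0.18, edgeR adjusted p = 0.00453) and at 70.8 against 113 CPM at 4 h (-0.68, edgeR adjusted p = 0.0383). The 2 h call was lost without WT 2 h A (edgeR adjusted p = 0.129), and the 4 h call without WT 4 h A, WT 4 h C, TTP-KO 4 h A or TTP-KO 4 h B (edgeR adjusted p between 0.073 and 0.235). Ms4a2, the beta chain of the IgE receptor, was at 116 CPM in TTP-KO against 181 CPM in WT at 2 h (-0.64 ± 0.16, edgeR adjusted p = 0.0326). It was not called without WT 2 h A, WT 2 h C or TTP-KO 2 h C (edgeR adjusted p between 0.0795 and 0.314). With only the groups compared in the fit, the calls of Cd37, Itgb7, Itga2b and Cd24a at 4 h and of Ms4a2 at 2 h were lost (edgeR adjusted p between 0.211 and 0.342). With RLE factors or library size alone, those of Cd37, Itga2b and Cd24a at 4 h were lost (edgeR adjusted p between 0.0649 and 0.086). The list medians of TTP-KO over WT were between -0.16 and -0.05 at the 4 times. Of the 14 tested genes for TTP and other factors that act on AU-rich RNA, 1 was called at a single time, Zfp36, lower in TTP-KO at 1 h and 4 h. Over all genes 0.502% were called in either direction at 1 h and 1.82% at 4 h. The 4 h call of Zfp36 depended on the fit, as given above. On the mean of the 4 times Zfp36 was lower and its paralogue Zfp36l1 higher in TTP-KO (0.42 ± 0.10, edgeR adjusted p = 0.00532), where 1.55% of all genes were called lower and 1.88% higher.

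**Figure D4:**
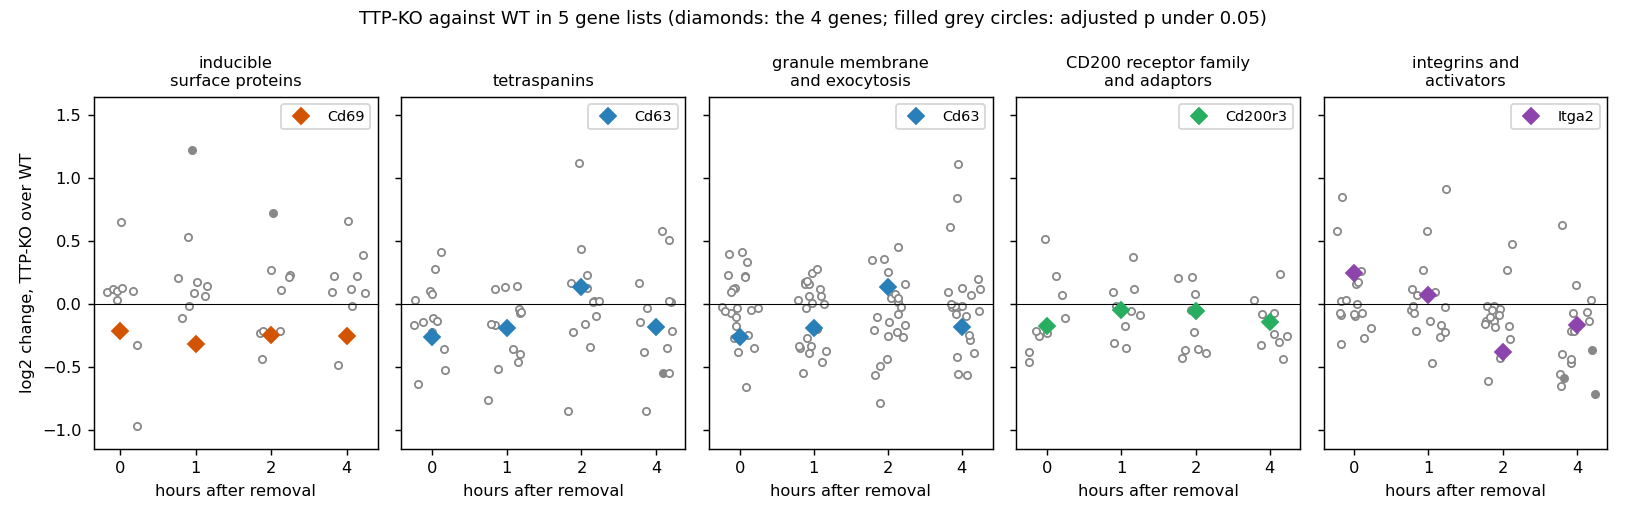
Log2 change of TTP-KO over WT (vertical axis) at 0, 1, 2 and 4 h for 5 lists of related genes, limited to genes with a mean of at least 10 CPM over the 24 libraries. Diamonds mark Cd69, Cd63, Cd200r3 and Itga2, and filled grey circles mark other genes with an adjusted p under 0.05. No diamond is a called gene, while Plaur at 1 and 2 h and Itgb1, Itgb7 and Itga2b at 4 h are.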

How the data were processed

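The labels give 8 groups of genotype and time with 3 libraries each. Per the labels' protocols, 65 ng of RNA treated with 10 mM iodoacetamide went into QuantSeq 3' libraries. Per the submitters' processing notes, the tools were STAR 2.7.10a, cutadapt 3.5 and SAMtools, on GRCm39. GRAND-SLAM and grandR stand in the design text of the series. The values used are the authors' deposited expected counts of reads, by gene and library, not normalized. Of them 12.8% were not whole, and they were rounded. How reads were assigned to genes is not given in the sources used here. Columns carry letters A to C and the labels numbers, so each column was tied to its group only. For that reason 144 other columns of per-sample values (GRAND-SLAM's new-to-total ratios with their intervals) were not used, and decay of the labelled RNA is not analysed here.

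The 4 genes and the lists were chosen with earlier results of these data known. In R 4.3.3, edgeR 4.0.16 was run on all 24 libraries with TMM factors, filterByExpr (12936 genes left) and 1 mean per group, and quasi-likelihood tests were adjusted by Benjamini-Hochberg over all genes, with calls at an adjusted p under 0.05. Contrasts were TTP-KO against WT at each time, later times against 0 h, and the difference between those changes. The script was tested on simulated data. Alternatives were library size alone, RLE factors, DESeq2 1.42.0, no filter, only the groups compared, no rounding, the letter as a block, and leaving out each library, or TTP-KO 4 h B and C together. Libraries held 8839260 to 25372890 reads of 3' tags without molecular identifiers. Libraries of the same group differed by more than counting error. Chi-square per degree of freedom was 29.5 to 77.2 over 24 such pairs, where counting error alone gives a value near 1.

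The text names the 4 genes, Itgb1, Tyrobp and Zfp36, the 3 genes most like each member, and up to 3 called genes of each of 7 pathway lists per genotype contrast. Other genes were chosen after their values were seen. The 8 marker lists cover basophils, mast cells, NK and T cells, platelets and megakaryocytes, monocytes and macrophages, neutrophils, eosinophils, and dendritic and B cells. Motifs were counted in 3' UTRs of GENCODE M21 by gene ID.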

Additional observations from a re-analysis of the deposited data

How the results depend on the processing

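No alternative called any of the 4 genes between TTP-KO and WT at a single time. With 3 libraries per group and as few as 91 reads of Itga2, small differences were not detectable. The cause of the changes below was not tested. Values are log2 changes, from edgeR unless DESeq2 is named.

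With library size alone, Cd69 changed by 0.106 at 2 h and 0.431 at 4 h against 0 h in TTP-KO and by 0.183 and 0.422 in WT, and the difference between the genotypes in its change at 4 h was 0.00866. Cd63 was called at 0.346 at 1 h in TTP-KO and 0.355 at 2 h in WT against 0 h, and was at 0.0405 at 2 h against 1 h in WT and 0.101 at 4 h against 2 h in TTP-KO. Cd200r3 against 0 h was at 0.486 at 2 h and 0.373 at 4 h in TTP-KO, and 0.41 and 0.298 in WT. Itga2 in WT was at -1.12 at 2 h and 0.000882 at 4 h. With RLE factors the Cd69 difference at 4 h was 0.000452.

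Without TTP-KO 4 h B and C, Cd69 in TTP-KO was at -0.0871 at 4 h against 0 h and -0.00799 against 2 h. Cd63 in TTP-KO was at 0.335 at 1 h against 0 h and 0.00462 at 4 h against 2 h. Cd200r3 was at 0.134 for TTP-KO against WT at 4 h and 0.3 at 2 h against 0 h in TTP-KO, and Itga2 was at -1.31 at 1 h in TTP-KO. With only the groups compared, Cd63 in TTP-KO was at 0.331 at 1 h and Cd200r3 at -0.00243 at 4 h. Itga2 at 1 h in TTP-KO was called at -1.33 in DESeq2 and without the filter.

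The letters did not pair the samples: of 84 pairs with the same letter, 0 had a correlation of deviations over 0.1 (-0.125 to 0.0925). With the letter as a replicate block, Itga2 was at -0.0824 for TTP-KO against WT at 1 h and -1.42 at 1 h against 0 h in TTP-KO, where it was called (adjusted p = 0.0271). Letter A of Itga2 lay above its group mean in 7 of the 8 groups, by 0.261 on average.

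Genes called between TTP-KO and WT numbered 68, 65, 67 and 236 at 0, 1, 2 and 4 h. DESeq2 called 222, 199, 234 and 490. Without the filter they were 123, 108 and 127 at 0, 1 and 2 h. With only the groups compared they were 116 at 0 h, 41 at 2 h and 47 at 4 h. Without TTP-KO 4 h B and C they were 134, 120, 146 and 130. On the mean of the 4 times DESeq2 called 728 against 444 in edgeR.

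Leaving out each library in turn, the 2 h count ran from 45 to 102 and the 4 h count from 137 to 431. The highest 4 h count was without TTP-KO 4 h A. TTP-KO against WT ran from -0.112 to 0.0594 at 1 h and -0.123 to 0.0359 at 2 h for Cd200r3. For Itga2 it ran from -0.725 to 0.483 at 1 h, -0.277 to 0.0247 at 4 h and -0.256 to 0.0463 on the mean of the times. Against 0 h in TTP-KO, Cd200r3 ran from 0.208 to 0.396 at 2 h and -0.143 to 0.11 at 4 h, Cd63 from 0.227 to 0.38 at 1 h, Cd69 from -0.0143 to 0.158 at 4 h and Itga2 from -2.14 to -0.927 at 1 h. Against 0 h in WT, Cd200r3 ran from -0.00279 to 0.204 at 1 h and -0.102 to 0.0765 at 4 h, Cd63 from -0.0818 to 0.247 at 2 h and 0.304 to 0.426 at 4 h, and Itga2 from -1.6 to -1.21 at 2 h. At 2 h against 1 h, Cd200r3 ran from -0.0229 to 0.133 in TTP-KO and -0.0121 to 0.16 in WT, Cd63 from -0.314 to 0.000604 in WT, and Itga2 from -1.08 to 0.126 in TTP-KO and -0.466 to 0.0831 in WT. The difference between the genotypes' changes ran from -0.0054 to 0.148 at 1 h and 0.278 to 0.586 at 2 h for Cd63, from -0.103 to 0.0682 at 2 h and -0.115 to 0.0596 at 4 h for Cd69, from -0.119 to 0.133 at 4 h for Cd200r3, and from -0.977 to 0.232 at 1 h for Itga2.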

Other observations

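Markers of 4 further cell types were summed in CPM over the libraries of each genotype. Markers of dendritic and B cells stood at 402.9 to 669.6 CPM in TTP-KO and 280.8 to 426.3 CPM in WT, higher in TTP-KO than in WT at each of the 4 times without overlap, and their part in the TTP-KO against WT values was not tested. Basophil markers summed to 37010 to 54540 CPM in TTP-KO and 34690 to 52620 CPM in WT. TTP-KO was higher without overlap at 1 h (54160 to 54540 against 50540 to 52620 CPM) and 2 h (48230 to 51310 against 42270 to 44290 CPM). The genotypes overlapped at 0 h and 4 h. From 0 h to 4 h the mean basophil sum went from 50990 to 39310 CPM in TTP-KO and from 52010 to 35890 CPM in WT. Neutrophil markers summed to 3791 to 5137 CPM in TTP-KO and 3111 to 5754 CPM in WT. They were lower in TTP-KO without overlap at 0 h (4716 to 5059 against 5282 to 5754 CPM). At 4 h they were higher in TTP-KO without overlap (3964 to 4153 against 3111 to 3300 CPM), and at 1 h and 2 h the genotypes overlapped. Eosinophil markers summed to 182.2 to 433 CPM in TTP-KO and 176.7 to 392.1 CPM in WT. The part of these sums in the TTP-KO against WT values was not tested either.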
